A study of Drosophila melanogaster with 7 samples.

Results

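The genes described here carry the signals and the proneural decision of the morphogenetic furrow, the front of differentiation that sweeps across the eye imaginal disc of the Drosophila larva. They were chosen by name as 10 genes, hh, ptc, ci, dpp, ato, sca, h, emc, da and Dl, and were looked up through the annotation of the array's probes. Of these 10 genes, 7 had a named probe and 6 had a value, out of 5971 genes with a value in the series. The 6 were hh, ptc, ci, ato, emc and da, each measured by a single probe with a value on all 7 arrays, and all 6 were among the 3586 genes tested. The probe of dpp, which encodes the BMP-type signal of the furrow, had no value on any array. No probe was matched to sca, h or Dl, and they were not analysed here.

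Eye discs of larvae in the third instar, staged with bromophenol blue in the food, were compared on 2-colour arrays in a w1118 genetic background. The mutant discs carried sevd2, known as a loss-of-function allele of the receptor tyrosine kinase gene sevenless (sev), or sevS11, known as an activated form of that receptor. Each genotype gave 2 RNA extractions. The sevd2 extractions had 2 arrays each with the dyes swapped, as had sevS11 extraction 1, whereas sevS11 extraction 2 had a single array. Every array was set against the same pool of RNA from the w1118 wild-type strain. The labels name this pool as eye discs in the source and extraction fields and as wing discs in the description field. Marker genes of both tissues are therefore given below. The labels give no more on how the sevS11 form is driven, and they do not say how many animals were pooled.

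In the furrow, cells that have begun to differentiate behind the front release Hedgehog. Hedgehog binds Patched, which relieves the inhibition of Smoothened and lets full-length Cubitus interruptus act as an activator in the cells ahead. Their targets include dpp, ptc itself and atonal, whose product pairs with Daughterless to specify R8, the founder photoreceptor. Extramacrochaetae and Hairy hold this proneural activity back, and Delta, through Notch, with Scabrous, spaces the R8 cells. Sevenless acts later, behind the furrow, in the choice of the R7 photoreceptor fate.

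Values are log2 ratios as the authors deposited them, likely mutant over reference, so that 0 means equal RNA in the mutant discs and the pool. In whole discs fewer cells of a type and less RNA per cell cannot be told apart. The precision is limited by the number of arrays, which held values for 4701 to 7009 probes. Arrays of the same extraction correlated at 0.777 to 0.939 across probes, and the extraction means correlated at 0.73 across tested genes in sevd2 and at 0.45 in sevS11. Of the tested genes, 73.6% had the same sign in both sevd2 extractions and 60.5% in both sevS11 extractions. The likely direction was taken from sev itself, at 3.14 ± 0.54 (log2 ± SE, n = 2 extractions) in sevS11 (limma, adjusted p = 0.0367). Its sevS11 extractions were far apart, at 1.85 and 4.43. The ratio was 1.85 with replicate 3, the lone extraction 2 array, left out. It was 3.11 with sevS11 replicate 1 left out, and then no longer passed (limma, adjusted p = 0.0575).

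Of 9 eye-field transcription factor genes on the list, 7 were tested (ey, toy, eya, so, dac, eyg and Optix). Their fitted ratios ran from 0.04 to 0.32 in sevd2 and from -0.25 to 0.40 in sevS11, with none passing the test (limma; 0 and 1 at an unadjusted p under 0.05). Without regard to sign, their median size was 0.12 in sevd2 and 0.25 in sevS11, beside 0.10 and 0.17 over all tested genes. Of 10 wing disc markers 8 had a value. The probes of vg and nub, which define the wing pouch, had none on any array, and ap, pnr and Dr had a value on 2, 1 and 1 arrays. The wing disc marker bs had a value on 7 arrays, and ara and caup on 6 each. These 3 were tested, with ratios from 0.13 to 0.23 in sevd2 and from -0.10 to 0.02 in sevS11, and none passed (limma; 0 and 0 at an unadjusted p under 0.05). The blood cell markers differed most by genotype. Their 6 tested genes of 10 ran from -1.01 to -0.36 in sevd2 and from -0.25 to 1.75 in sevS11. PPO1, PPO2 and He passed as higher in sevS11, and PPO1 and PPO2 in sevS11 minus sevd2, where only 2 of all 3586 tested genes passed (limma). None passed in sevd2. In sevS11 SPARC and NimC1 went the other way, at -0.24 and -0.25, without passing. The 3 tested neuronal markers did not move one way. Appl stood at -0.44 in sevd2 and at 0.72 in sevS11 (limma, adjusted p = 0.0419). chp stood at -0.27 and -0.46 (limma, adjusted p = 0.0734 in sevS11), and elav at -0.15 and 0.39 (limma, adjusted p = 0.154 in sevS11). Whether these markers have a part in the values of the furrow genes was not tested.

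None of the 6 furrow genes with values passed the test in either genotype or between the genotypes. Their fitted ratios ran from 0.03 for hh to 0.21 for ci in sevd2, and from -0.15 for ci to 0.38 for hh in sevS11. The test was limma's moderated test on the extraction means, with Benjamini-Hochberg adjustment over 3586 genes at a threshold of 0.05. The count of 0 of 6 stands beside 5.77% of all tested genes in sevS11, 0.0837% in sevd2 and 0.0558% in the comparison of sevS11 with sevd2. At an unadjusted p under 0.05 the counts were also 0 of 6, beside 25.3%, 9.76% and 12.7% of all tested genes. With so few genes, a count of 0 does not stand apart from these shares. The fit uses a spread shared by the genotypes. Fitted with only the sevd2 extractions, 0 of the 6 passed in sevd2. At an unadjusted p under 0.05 there were then 3 (ptc, ci and emc), beside 1153 of the 3586 tested genes (limma). The median ratio of the 6 was 0.21 in sevS11 and 0.15 in sevd2, beside -0.0035 and 0.01 over all tested genes. Without regard to sign, the median size of their ratios was 0.21 in sevS11 and 0.15 in sevd2, beside 0.17 and 0.10 over all tested genes. For the difference between the genotypes it was 0.16, beside 0.19.

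**Figure D1:**
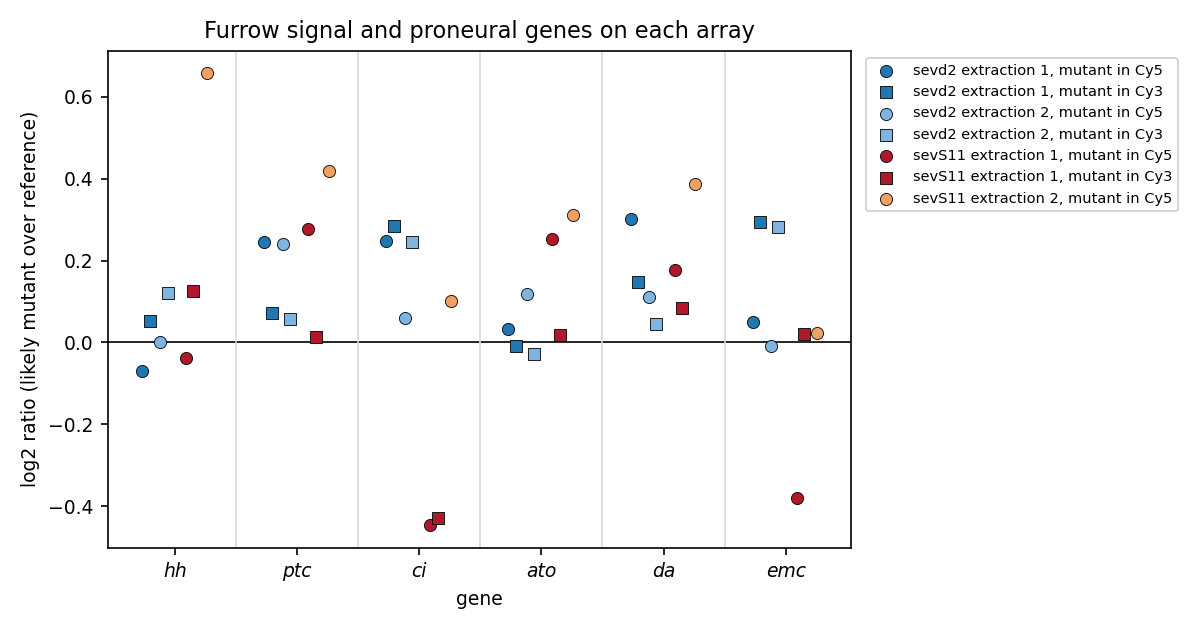
Log2 ratio (likely mutant over reference, vertical axis) of each of the 6 furrow genes with values (horizontal axis) on each of the 7 arrays, with colour for the extraction and shape for the dye of the mutant RNA. The sevS11 extraction 2 array lies highest for hh, ptc, ato and da, and the pair of sevS11 extraction 1 lies lowest for ci.

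hh encodes the secreted Hedgehog protein, the signal that drives the furrow forward. On the 4 sevd2 arrays its ratio was -0.07 and 0.05 in extraction 1 and 0.0007 and 0.12 in extraction 2. On the sevS11 arrays it was -0.04 and 0.13 in extraction 1 and 0.66 in extraction 2. The single array of sevS11 extraction 2 was thus the only one of 7 above 0.13, and the other 2 sevS11 arrays overlapped those of sevd2. Once the dye effect of -0.07 was taken off that array, its value was 0.73, beside 0.04 for extraction 1. This gap of 0.68 between the sevS11 extractions was larger than that of 92% of all tested genes, while the sevd2 extractions differed by 0.07. The fitted sevS11 ratio of 0.38 ± 0.17 (log2 ± SE, n = 2 extractions) had a 95% confidence interval from -0.03 to 0.80 (limma, adjusted p = 0.227). In sevd2 the ratio was 0.03 ± 0.17, with an interval from -0.39 to 0.44 (limma, adjusted p = 0.979). That error comes from a spread shared with sevS11, and from the sevd2 extractions alone it was 0.06. The value of hh in sevS11 therefore rests on 1 array. Without it the ratio was 0.04 (limma, adjusted p = 0.709), and from it alone, without sevS11 extraction 1, the ratio was 0.72 (limma, adjusted p = 0.00416). That last test assumes that the lone sevS11 extraction varies as the sevd2 extractions do.

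ptc encodes the Hedgehog receptor and is itself switched on by Hedgehog signalling. Its ratio was above 0 on every array, at 0.25 and 0.07 in sevd2 extraction 1, 0.24 and 0.06 in sevd2 extraction 2, 0.28 and 0.01 in sevS11 extraction 1 and 0.42 in sevS11 extraction 2. In each of the 3 swapped pairs the array with the mutant RNA in Cy5 gave the higher value, by 0.17 to 0.26. With the dyes averaged, the sevd2 extractions were at 0.16 and 0.15, and sevS11 extraction 1 was at 0.15. The sevS11 extraction 2 array stood at 0.31 after the dye correction. The fitted ratios were 0.15 ± 0.10 in sevd2 (limma, adjusted p = 0.698) and 0.23 ± 0.10 in sevS11 (limma, adjusted p = 0.217). The sevd2 interval, from -0.09 to 0.40, leaves out a change of 0.5 in either direction. The sevS11 interval, from -0.01 to 0.47, rests on a spread shared with sevd2. Fitted with only the sevS11 extractions, the ptc ratio had an error of 0.20, and a rise of 0.5 is then not left out. The genotypes overlapped throughout and differed by 0.08 ± 0.14. From the single array of sevS11 extraction 2 alone the ratio was 0.33.

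ci encodes the transcription factor at the end of the Hedgehog pathway, which acts as activator or repressor according to the signal. Its ratio was above 0 on all 4 sevd2 arrays, at 0.25 and 0.29 in extraction 1 and 0.06 and 0.25 in extraction 2. The sevS11 extraction 1 arrays gave -0.45 and -0.43, in close agreement between the dyes, and the sevS11 extraction 2 array gave 0.10. So ci was the gene of this group with the lowest values in sevS11, but the extraction 2 array lay within the sevd2 range. The fitted ratio was 0.21 ± 0.15 in sevd2 (limma, adjusted p = 0.752) and -0.15 ± 0.15 in sevS11 (limma, adjusted p = 0.568). The difference between the genotypes, -0.36 ± 0.22, had an interval from -0.89 to 0.18 (limma, adjusted p = 0.512). Within arrays that had the mutant RNA in Cy5 the difference was -0.33, and within those that had it in Cy3 it was -0.70. The Cy5 value takes in both sevS11 extractions and the Cy3 value extraction 1 alone, so the 2 values differ in more than dye. Without the array of sevS11 extraction 2 the sevS11 ratio was -0.44 and the difference -0.65. Without extraction 1 the sevS11 ratio turned to 0.16.

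Among the proneural genes, ato encodes the basic helix-loop-helix factor that makes R8 cells competent. On the sevd2 arrays its ratio was 0.03, -0.0084, 0.12 and -0.03, on both sides of 0. All 3 sevS11 arrays were above 0, at 0.25 and 0.02 in extraction 1 and 0.31 in extraction 2. The Cy3 array of sevS11 extraction 1 lay inside the sevd2 range, and the other 2 lay above it. The sevS11 extractions, at 0.13 and 0.24, were closer together than those of most genes, since 22.6% of tested genes had a smaller gap. The fitted ratio was 0.19 ± 0.09 in sevS11, with an interval from -0.05 to 0.42 (limma, adjusted p = 0.273), and 0.03 ± 0.09 in sevd2, from -0.21 to 0.26 (limma, adjusted p = 0.963). The genotypes differed by 0.16 ± 0.13 (limma, adjusted p = 0.606), with 0.21 on arrays that had the mutant RNA in Cy5 and 0.03 on those that had it in Cy3. As for ci, the Cy3 value holds sevS11 extraction 1 alone and the Cy5 value both extractions.

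da encodes Daughterless, the broadly expressed partner with which Atonal binds DNA. It was above 0 on all 7 arrays, at 0.30 and 0.15 in sevd2 extraction 1, 0.11 and 0.05 in sevd2 extraction 2, 0.18 and 0.08 in sevS11 extraction 1 and 0.39 in sevS11 extraction 2. The highest and lowest sevS11 arrays enclosed 3 of the 4 sevd2 arrays. The fitted ratio was 0.15 ± 0.11 in sevd2 (limma, adjusted p = 0.736) and 0.23 ± 0.11 in sevS11 (limma, adjusted p = 0.237), and the genotypes differed by 0.08 ± 0.15. From the single array of sevS11 extraction 2 alone the ratio was 0.33.

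emc encodes a helix-loop-helix protein without a basic region, which binds Daughterless and its partners and keeps them off DNA. Its ratio depended on the dye more than that of the other 5 genes. In all 3 swapped pairs the array with the mutant RNA in Cy3 gave the higher value, at 0.29 against 0.05 and 0.28 against -0.0097 in sevd2, and 0.02 against -0.38 in sevS11. The sevS11 extraction 2 array, which had the mutant RNA in Cy5, gave 0.02, and 0.18 after the dye effect of -0.16 was taken off. The sevS11 extractions, at -0.18 and 0.18, cancelled to a fitted ratio of -0.0009 ± 0.12 (limma, adjusted p = 0.996). The sevd2 extractions, at 0.17 and 0.14, gave 0.15 ± 0.12 (limma, adjusted p = 0.775). The difference of -0.16 ± 0.17 did not pass (limma, adjusted p = 0.694), and without the array of sevS11 extraction 2 it was -0.33.

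**Figure D2:**
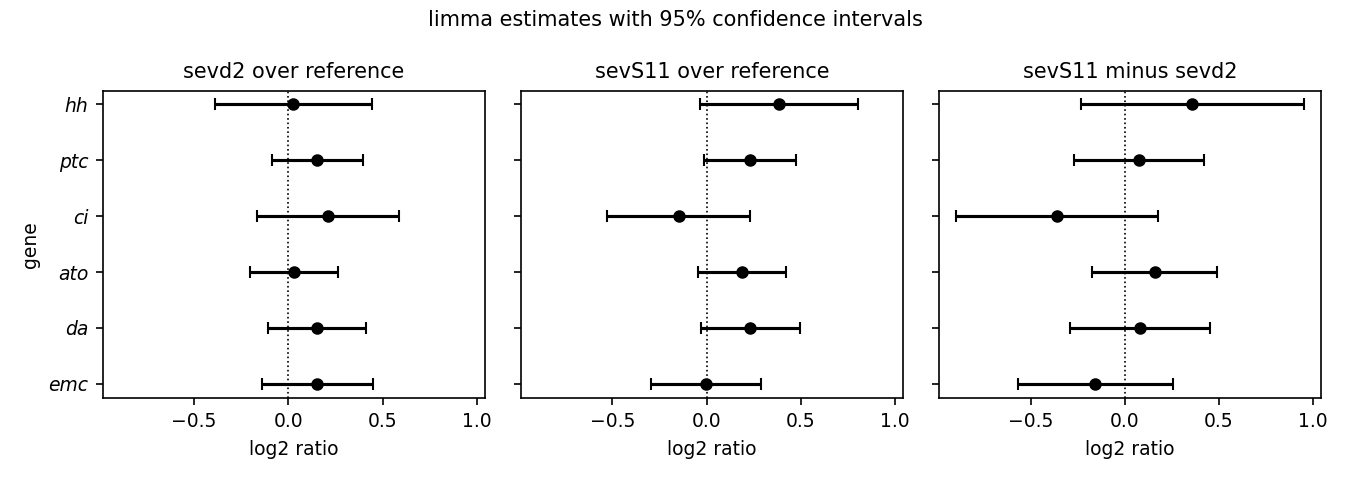
Fitted log2 ratio (horizontal axis) of each of the 6 furrow genes (vertical axis) in sevd2, in sevS11 and for sevS11 minus sevd2, as points with 95% confidence intervals from limma over 2 extractions per genotype. Every interval includes 0, and the widest are those of hh and ci.

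Set side by side, 3 of the 6 genes (ptc, ci and da) were above 0 on all 4 sevd2 arrays, as were 23.4% of the 2261 genes with a value on all 7 arrays. Likewise 3 of the 6 (ptc, ato and da) were above 0 on all 3 sevS11 arrays, beside 23.3% of those genes. Only ptc and da were above 0 on all 7 arrays, beside 6.86%. For 0 of the 6 did the arrays of the genotypes separate without overlap, beside 30.1% of genes on all 7 arrays. From high to low the sevS11 ratios ran hh, da, ptc, ato, emc and ci, and the sevd2 ratios ran ci, emc, ptc, da, ato and hh. The 95% confidence intervals of all 6 genes overlapped within each genotype, and neither order was tested.

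The 2 sevS11 extractions differed in the same direction for all 6 genes. In each, sevS11 extraction 1 lay below extraction 2, beside 51.9% of all tested genes. This order was not particular to the furrow genes. It held for 10 of 11 tested Hedgehog, 9 of 12 Dpp and 8 of 11 Notch pathway genes. It also held for 6 of 7 eye disc, 3 of 3 wing disc, 2 of 3 antennal disc and 3 of 3 neuronal markers, but for 0 of 6 blood cell markers. The gaps of hh, ci and emc were above the median gap of all tested genes, 0.26. Those of ptc, ato and da were below it, so the size of the gaps does not set the 6 apart. The corresponding median gap in sevd2 was 0.09. Extraction 2 is represented by a single array with an estimated dye correction, so extraction and array cannot be told apart.

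**Figure D3:**
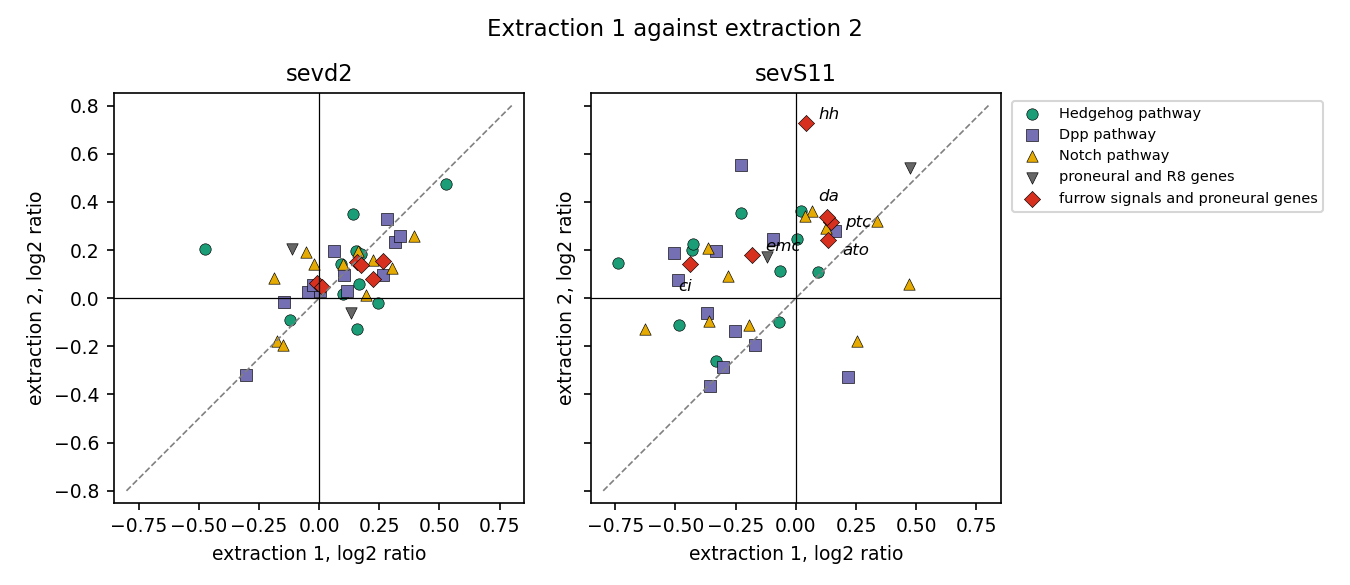
Log2 ratio in extraction 1 (horizontal axis) and extraction 2 (vertical axis) of sevd2 (left) and sevS11 (right), for the 6 furrow genes and for the tested genes of the Hedgehog, Dpp and Notch pathway lists and of the proneural and R8 list, with a dashed line at equality. The sevd2 points lie near the line except for a few, whereas in sevS11 all 6 furrow genes and 10 of 11 Hedgehog pathway genes lie above it.

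Other genes of the Hedgehog pathway also lay lower in sevS11 extraction 1 than in extraction 2. Of 20 listed genes for the release, reception and transduction of Hedgehog, 15 had a value and 11 were tested, and 0 rose and 0 fell in sevS11, in sevd2 or between them (limma; 1, 1 and 1 at an unadjusted p under 0.05). Their median ratio was -0.08 in sevS11, 0.11 in sevd2 and -0.17 for sevS11 minus sevd2, beside -0.0035, 0.01 and -0.02 over all tested genes. In sevS11 their median was -0.23 in extraction 1 and 0.15 in extraction 2, while the sevd2 extractions had medians of 0.15 and 0.14.

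The lowest p in sevS11 was that of Su(fu), which encodes a negative regulator that holds Ci in the cytoplasm. It was below 0 on every array, between -0.16 and -0.09 in sevd2 and between -0.34 and -0.27 in sevS11. The genotypes did not overlap, as was so for 30.1% of genes on all 7 arrays. The sevS11 ratio of Su(fu) was -0.30 ± 0.09 (limma, adjusted p = 0.127). Next came rasp, the acyltransferase gene needed to make active Hedgehog (-0.30 ± 0.19), rdx, whose product targets Ci for degradation (0.19 ± 0.12), and dlp, a glypican gene that helps Hedgehog bind its target cells (-0.30 ± 0.21). For dlp the sevS11 arrays gave -0.78 and -0.70 in extraction 1 and 0.11 in extraction 2, the same order as for ci. The co-receptor gene ihog, named after its values were seen, gave 0.69, 0.37, 0.58 and 0.37 on the sevd2 arrays and -0.32, -0.53 and 0.35 on the sevS11 arrays. Its sevS11 extraction 2 array, like that of ci, lay on the sevd2 side of 0. Without the array of sevS11 extraction 2 the sevS11 ratios were -0.33 for Su(fu) and -0.74 for dlp. From that array alone rdx stood at 0.38 and dlp turned to 0.14. Fits with a single sevS11 extraction take their spread from sevd2 alone.

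The Dpp pathway, whose ligand dpp was without a value, gave 13 of 20 listed genes with a value and 12 tested. None rose or fell in sevS11, sevd2 or between them (limma; 2, 2 and 2 at an unadjusted p under 0.05). The median was -0.17 in sevS11, with -0.28 in extraction 1 and 0.0078 in extraction 2, and 0.09 in sevd2. Over all tested genes it was -0.0035 in sevS11 and 0.01 in sevd2. In sevS11 3 of the 12 lay above 0, beside 1768 of all 3586 tested genes, and in sevd2 9 of the 12, beside 1886. Med, the gene of the shared Smad partner, had the lowest p in sevS11 (-0.36 ± 0.09, limma adjusted p = 0.0861). Its extractions were at -0.36 and -0.37 only after the dye correction, which for Med came from the sevS11 pair alone. The arrays gave -0.23 and -0.48 in extraction 1 and -0.24 in extraction 2, and without the correction the Med ratio was -0.30. The ligand gene gbb stood at -0.29 ± 0.10, with -0.30 and -0.29 in the extractions after the dye correction. Its arrays gave -0.44 and -0.16 in extraction 1 and -0.40 in extraction 2. Mad, which encodes the Smad activated by Dpp receptors, stood at -0.19 ± 0.09, and bi, a T-box gene that Dpp switches on in discs, at 0.22 ± 0.10. The bi ratio was above 0 on all 6 arrays with a value, between 0.19 and 0.38 in sevd2 and between 0.15 and 0.32 in sevS11, and the genotypes overlapped. Without the array of sevS11 extraction 2 the sevS11 ratios were -0.36 for Med, -0.30 for gbb and -0.25 for Mad.

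On the Notch side, whose ligand gene Dl was not analysed here, 11 of 20 listed genes had a value and were tested, and none rose or fell in any of the 3 comparisons (limma; 2, 1 and 0 at an unadjusted p under 0.05 in sevS11, sevd2 and between them). The median was 0.04 in sevS11 and 0.10 in sevd2. kuz, the gene of the metalloprotease that cuts Notch after ligand binding, stood at 0.33 ± 0.10 in sevS11 (limma, adjusted p = 0.118), with 0.34 and 0.32 in the extractions. Su(dx), a ubiquitin ligase gene that lowers Notch, stood at -0.38 ± 0.15, with -0.63 and -0.13. Psn, the catalytic subunit gene of gamma-secretase, was below 0 on all 7 arrays, between -0.27 and -0.08 in sevd2 and between -0.39 and -0.14 in sevS11, with overlap and a sevS11 ratio of -0.23 ± 0.11. The co-repressor gene gro, which acts with Hairy, stood at 0.27 ± 0.13 in sevS11, with 0.47 and 0.06. Without the array of sevS11 extraction 2 the sevS11 ratios were 0.34 for kuz, -0.63 for Su(dx), -0.36 for Psn and 0.47 for gro.

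Most proneural genes other than ato had few values or none, and why an array has no value for a probe is not known here. Of 10 listed proneural and R8 genes, 6 had a value and 2 were tested, sc and ro. The R8 factor gene sens had a value on 3 arrays, the proneural gene l(1)sc on 4, and ase and boss on 1 each. ac, amos and cato had probes with no value. In sevS11 ro, a homeobox gene that restricts R8 fate behind the furrow, rose (0.51 ± 0.10, limma adjusted p = 0.0484), and sc did not pass. The call of ro ended in several other fits, among them those without the dye correction (0.54) and with scaled arrays (0.41).

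The genes nearest to each furrow gene over the 7 arrays, by Euclidean distance among 2261 genes with a value on all of them, were as follows. For hh it was E(spl)m3-HLH at a distance of 0.16, a Notch target of the Enhancer of split complex, which gave 0.64 on the sevS11 extraction 2 array and between -0.02 and 0.20 on the other 6, and then CG17493 at 0.31. For ci the nearest were tud (0.13), with -0.51 and -0.45 on the sevS11 extraction 1 arrays and 0.14 on that of extraction 2, and Patr-1 (0.15). The nearest to ptc were Prm (0.19) and da (0.20), so that one furrow gene was among the nearest neighbours of another. For da they were O-fut1 (0.16), the O-fucosyltransferase gene of Notch, and mge (0.18). The nearest to ato were LpR1 (0.15) and CG40188 (0.16), and to emc Fak and Capr (0.17 each). These distances are descriptions of 7 arrays from 4 extractions against 1 reference pool, which the arrays share.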

How the data were processed

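The authors deposited 1 normalised value per probe and array, taken here as log2 ratios. The submitters' processing notes name limma, and base 2 follows its convention. How the background was corrected, how arrays were normalised and filtered, and the direction of the ratios: not given in the sources used here. Blank cells were left blank. Of 16416 probes, 8650 had no value. Names came from the platform annotation, updated with RefSeq's table of genes on Release 6 plus ISO1 MT (12533 by gene identifier, 120 by accession, 511 with the older symbol, 101 with several genes unnamed, 3151 not listed). Probes of a gene were averaged.

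The arrays of an extraction were averaged as 1 replicate. The unswapped array had the mean dye effect of the swapped pairs subtracted, where a pair existed (147 tested genes had none). Genes with a value from every extraction entered lmFit and eBayes of limma 3.58.1 under R 4.3.3, with 3.8 prior and 2 residual degrees of freedom and a spread shared by the genotypes, at an adjusted p under 0.05. Since no label ties the extractions to separate animals, the p-values cover the spread between extractions alone, which may be technical. The steps were run on simulated data with an equal spread in both genotypes and planted changes larger than the furrow ratios. In the deposited data the extraction gaps were larger in sevS11 than in sevd2, which the simulation does not cover. Tests against the reference leave out the reference's own spread.

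The genes, lists and tests were chosen with earlier results of these data known. Named besides the furrow genes were sev, list genes that passed or else the 4 of lowest p in sevS11, and the 2 nearest genes of each. No sequences are shown. The extraction numbers do not pair the samples, since same-numbered deviations correlated at -0.07 across genes.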

Additional observations from a re-analysis of the deposited data

Results flagged for a closer look

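For Su(fu) the lowest of the 4 sevd2 arrays, at -0.16, lay far from the other 3, with a gap of 0.847 of the range. This was 1 of 15 groups of 4 arrays examined, and chance gives such a gap in about 1 of 20 groups of independent values. The 4 arrays come from 2 extractions with the dyes swapped, so that rate need not hold here. For Mad, measured on 2 sevd2 arrays, both were above 0 and all sevS11 arrays below, a mean difference of -0.19. The margin was small, with 0.0058 and 0.0287 in sevd2 and -0.0072 on the sevS11 extraction 2 array. In the fit the genotypes differed by -0.21 ± 0.13 (limma, adjusted p = 0.519). For sev the sevd2 arrays with a value were all below 0 and the sevS11 arrays all above, with a mean difference of 3.03 (3.50 ± 0.77 in the fit, limma adjusted p = 0.187), and the likely direction of the ratios was taken from this gene.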

How the results depend on the processing

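Under 21 alternatives (20 for the difference between the genotypes) the count of furrow genes that passed stayed at 0 except where a whole sevS11 extraction was left out (limma; at an unadjusted p under 0.05 the array-level fit had 3 in sevS11). With arrays or extractions left out it ran from 0 to 3 in sevS11, where hh, ptc and da passed without extraction 1 and ci passed without replicate 3, the only array of extraction 2. For sevS11 minus sevd2 it ran from 0 to 2, with ci and emc passing without replicate 3 and hh without extraction 1. These fits hold a single sevS11 extraction, assumed to vary as the sevd2 extractions do, and with fewer extractions 1745 and 922 genes passed in sevS11 against 207. With the extraction number as a replicate block the count of furrow genes was 0 in each comparison and that of all genes 383 in sevS11, 92 in sevd2 and 85 between them, against 207, 3 and 2.

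The sevS11 ratio of emc, near 0, turned positive with the sevS11 pair's own dye effect (0.0214), centred arrays (0.0125), scaled arrays (0.0414) and quantile normalisation (0.0434), and ran from -0.18 to 0.16 with arrays or extractions left out. The ptc difference turned to -0.0064 with scaled arrays and ran from -0.0090 to 0.18. With arrays or extractions left out, other ratios that changed sign ran from -0.44 to 0.16 (ci in sevS11), -0.74 to 0.14 (dlp in sevS11), -0.0087 to 0.061 (hh in sevd2), -0.0086 to 0.066 (ato in sevd2), -0.33 to 0.0017 (emc difference) and -0.022 to 0.18 (da difference). The cause of these changes was not tested.

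The count of called genes on the 4 pathway lists, 1 in sevS11 (ro), was 0 without the dye correction, with the sevS11 pair's dye effect, with only the sevS11 extractions, with scaling and with quantile normalisation. It was 2 at a threshold of 0.1 and ran from 0 to 19 with arrays or extractions left out. In sevd2, where it was 0, it was 6 with only the sevd2 extractions, 1 with scaling, 1 with quantile normalisation, and 0 to 6 with arrays or extractions left out, and for the difference it ran from 0 to 16. The count of all genes in sevS11 was 395 in the array-level fit, 116 with scaled arrays, 132 over genes measured on all arrays and 408 at a threshold of 0.1. In sevd2 it was 39, 174, 13 and 33 in those 4 fits, 166 with quantile normalisation, 496 with only the sevd2 extractions, 11 with centred arrays, 5 with the sevS11 pair's dye effect and 0 without the dye correction (limma; 333 at an unadjusted p under 0.05). For the difference the array-level fit gave 39, scaling 27, the threshold 24 and quantile normalisation 23, and the other fits gave 1, or 0 over genes measured on all arrays (limma; 287 at an unadjusted p under 0.05), against 2. With arrays or extractions left out the counts ran from 76 to 1745 in sevS11, 4 to 540 in sevd2 and 1 to 1516 for the difference. Per probe 625, 218 and 1 probes passed. Single arrays and 2 extractions per genotype limit what could be detected.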
